A study of Mus musculus with 12 samples.

Results

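Residual H3K27me3 regions of the Ezh2 -/- cells of experiment 2 were chosen from the peak lists of the 2 knockout libraries: every autosomal peak of either list was taken, and peaks that overlapped by 1 bp or more were joined. This gave 383 regions, out of 195396 autosomal regions when the peaks of all 10 lists used here were joined in the same way. Of the 383 regions, 25 were in both knockout lists, 357 in the list of replicate 2 only and 1 in the list of replicate 1 only. The cells were iMEFs of line C2, mouse embryonic fibroblasts transformed with c-Myc and derived from 1 clone. Per the study's methods the clone carries 1 floxed and 1 deleted Ezh2 allele (Ezh2 flox/Δ) with CreERT2 at ROSA26, so that 4-hydroxytamoxifen removes the remaining gene, and the cells labelled WT/WT would then still hold the floxed copy only. The rescues carry Flag-tagged Ezh1 or Ezh2 from a retrovirus. The groups of experiment 2 were Ezh2 -/- (2 libraries), the Ezh1 pre-rescue condition and the Ezh2 pre-rescue condition (1 library each, cells that stably expressed Ezh1 or Ezh2 before the endogenous gene was deleted) and Ezh2 WT/WT (2 libraries), all with H3K27me3 antibody clone 7b11 on an Illumina sequencer. Experiment 1 held Ezh2 -/- (2 libraries) and Ezh2 WT/WT (2 libraries), with another H3K27me3 antibody on a SOLiD sequencer. All groups carry the c-Myc transformation and come from the same clonal line, so replicates are separate samples of 1 line, and their spread may be partly technical.

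H3K27me3 is the trimethyl mark on lysine 27 of histone H3. It is deposited by Polycomb repressive complex 2 (PRC2), whose catalytic subunit is Ezh2 or its paralog Ezh1, and it marks silenced developmental genes. Ezh1 remains in cells without Ezh2 and is known as the weaker methyltransferase. PRC2 is recruited to CpG islands of developmental genes, and the mark spreads from there over wider domains.

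The lists hold the start and end of each peak and neither height nor score, so the read depth under each peak is not known, and every value here is a count, a width or a share of bases under peaks. The list of replicate 1 had 29 autosomal peaks and that of replicate 2 had 382, against 111774 in the Ezh1 rescue, 64240 in cells rescued with Ezh2, 18229 and 13384 in the wild type of experiment 2, 36427 and 55489 in the knockout of experiment 1 and 81153 and 80524 in the wild type of experiment 1. According to the study's methods, the reads of Ezh2 -/- and Ezh1 rescue samples were multiplied by a factor below that of the other samples, set by the amount of immunoprecipitated DNA. Its part in the number of knockout peaks and in the results below was not tested. Neither knockout list had a peak outside the autosomes.

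The regions ranged from CpG-dense promoters to CpG-poor introns and intergenic stretches, and 6 windows of 300 bases are shown as examples, on the + strand of mm9 with CpG dinucleotides in capitals. PRC2 is drawn to CpG-rich DNA, and the first 3 windows are the stretches with the most CpGs outside exons in regions at the promoters of Prdm12 (chr2:31492426-31492725, 26 CpGs), Ngfr (chr11:95447523-95447822, 22 CpGs) and Wnt7b (chr15:85411313-85411612, 49 CpGs). The other 3 are the centres of regions far from a promoter. Those nearest to Adamts8 (chr9:30789776-30790075, intergenic, 3 CpGs) and in an intron of Tox2 (chr2:163059326-163059625, 4 CpGs) had the highest percent of their bases under wild-type peaks among the 25 shared regions, averaged over the 4 libraries, and the one in an intron of 4933421E11Rik (chr3:106521376-106521675, 0 CpGs) had the lowest. The windows at Prdm12, Ngfr, Wnt7b and 4933421E11Rik were picked after their values had been seen.
Prdm12: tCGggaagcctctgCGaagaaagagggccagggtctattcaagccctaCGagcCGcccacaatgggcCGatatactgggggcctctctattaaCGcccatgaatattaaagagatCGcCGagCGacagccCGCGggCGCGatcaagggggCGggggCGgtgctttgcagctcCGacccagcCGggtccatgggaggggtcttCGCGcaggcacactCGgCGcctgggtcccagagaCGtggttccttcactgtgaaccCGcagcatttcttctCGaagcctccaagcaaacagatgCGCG
Ngfr: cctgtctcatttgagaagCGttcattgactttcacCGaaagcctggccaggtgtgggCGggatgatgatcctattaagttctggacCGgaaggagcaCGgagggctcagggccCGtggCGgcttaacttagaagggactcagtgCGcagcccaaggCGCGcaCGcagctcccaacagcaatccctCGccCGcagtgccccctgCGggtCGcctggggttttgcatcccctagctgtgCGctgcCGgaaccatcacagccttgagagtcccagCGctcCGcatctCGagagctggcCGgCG
Wnt7b: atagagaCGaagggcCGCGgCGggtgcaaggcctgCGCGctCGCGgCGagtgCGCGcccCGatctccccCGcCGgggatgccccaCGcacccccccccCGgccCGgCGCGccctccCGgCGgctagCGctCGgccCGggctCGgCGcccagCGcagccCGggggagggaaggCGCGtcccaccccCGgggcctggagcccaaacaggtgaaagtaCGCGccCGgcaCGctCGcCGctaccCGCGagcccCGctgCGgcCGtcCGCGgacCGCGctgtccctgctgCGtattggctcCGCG
Adamts8: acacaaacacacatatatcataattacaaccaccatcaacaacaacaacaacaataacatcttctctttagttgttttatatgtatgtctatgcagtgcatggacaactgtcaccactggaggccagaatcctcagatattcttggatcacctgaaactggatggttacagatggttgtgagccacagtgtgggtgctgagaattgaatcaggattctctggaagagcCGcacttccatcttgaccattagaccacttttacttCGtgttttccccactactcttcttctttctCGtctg
Tox2: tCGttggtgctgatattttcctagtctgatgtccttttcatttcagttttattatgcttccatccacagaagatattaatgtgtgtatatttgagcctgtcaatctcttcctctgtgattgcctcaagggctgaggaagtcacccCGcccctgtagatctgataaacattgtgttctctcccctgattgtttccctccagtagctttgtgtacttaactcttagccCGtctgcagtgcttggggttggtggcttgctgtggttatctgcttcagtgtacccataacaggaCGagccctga
4933421E11Rik: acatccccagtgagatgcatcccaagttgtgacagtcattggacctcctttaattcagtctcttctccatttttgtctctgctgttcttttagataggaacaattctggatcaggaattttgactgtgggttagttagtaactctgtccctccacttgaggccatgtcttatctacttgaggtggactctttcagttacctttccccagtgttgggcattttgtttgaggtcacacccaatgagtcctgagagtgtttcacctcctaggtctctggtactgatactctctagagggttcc

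The 2 knockout lists differed widely in length, and nearly all of the shorter one lay within the longer one. Of the 29 peaks of replicate 1, 28 met a peak of replicate 2, while 25 of the 382 peaks of replicate 2 met a peak of replicate 1. The narrowest overlap that counted was 650 bp, at chr11:98193801-98194450 near Neurod2. The closest pair of peaks that did not meet was 200 bp apart, at chr11:98191201-98194500 in the same stretch. The only region of replicate 1 alone lay at chr11:98484101-98485050 near the start of Gm12355, 166800 bp from the nearest peak of replicate 2. These values describe the lists that chose the regions and were not tested.

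Most regions were short. The median width was 850 bp (range 550 to 13500), 229 of 383 were under 1000 bp and 27 reached 3000 bp. The 25 shared regions had a median width of 2750 bp, against 850 bp for the 357 regions of replicate 2 only, and made up 92550 of the 482350 bases in all regions. Regions often stood close together: 189 of 383 had another region within 10000 bp, and the median gap to the nearest one was 12950 bp. The densest groups were 9 regions within chr5:35713551-35742300, at and around the homeobox gene Hmx1, 9 within chr5:112081251-112110800, nearest to C130026L21Rik, and 8 within chr2:163046201-163070150 in Tox2, an HMG-box gene.

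Peaks of the other libraries were found at the residual regions far more often than along the autosomes, with the Ezh1 rescue at the top by share of regions met. This share does not rank the amount of the mark. The paper reports a lower global level of H3K27me3 in the Ezh1 rescue than in the Ezh2 rescue, and a weaker genomic distribution. A peak of the Ezh1 rescue met 371 of the 383 regions (96.9%, 95% Wilson interval 94.6 to 98.2), while such peaks met 13.4% of all 1000-bp tiles of the autosomes. A peak of the Ezh2 rescue met 312 regions (81.5%, 77.3 to 85.0), against 5.33% of tiles. These intervals treat regions as independent and are too narrow, since neighbours can lie under the same peak. At the 3936 regions shared by the wild-type libraries of experiment 2, the same rescues met 94.0% and 85.5%, so these high shares are not particular to the residual regions. The wild-type libraries of experiment 2 met 138 and 109 regions (36.0% and 28.5%), against 1.28% and 0.95% of tiles. Thus 203 of the 383 regions had no peak in either wild-type list made with the same antibody as the knockout, and these lists are also the shortest after those of the knockout of that experiment.

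In experiment 1, whose libraries were not used to choose the regions, the wild type had a peak at most regions and the knockout at few. The knockout libraries met 20 and 72 regions (5.22% and 18.8%), against 2.42% and 4.42% of tiles, and the wild-type libraries met 328 and 342 regions (85.6% and 89.3%), against 8.69% and 10.1% of tiles. The intervals of such shares treat regions as independent and cover no more than counting error over regions. Both knockout libraries had a peak at 19 regions (4.96%, against 1.44% of tiles), and both wild-type libraries at 323 (84.3%, against 7.44% of tiles). In experiment 2, both wild-type libraries met the same 67 regions (17.5%, against 0.305% of tiles). At the 3936 regions shared by those libraries, the wild type of experiment 1 met 80.3% and 78.9% and its knockout 0.813% and 2.26%. The contrast within experiment 1 is thus not particular to the residual regions. Of the 383 regions, 229 were narrower than a tile, and the wider ones had more room to meet a peak.

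The share of residual bases under peaks, which weights each region by its width, was 98.0% in the Ezh1 rescue (10.2% of all autosomal bases), 79.5% in cells rescued with Ezh2 (3.25%) and 27.8% and 24.2% in the wild type of experiment 2 (0.601% and 0.455%). In experiment 1 it was 2.43% and 8.46% in the knockout (0.981% and 2.29% of autosomal bases), and 79.3% and 83.0% in the wild type (5.64% and 7.05%). The groups of experiment 1 did not overlap: the knockout averaged 5.44% ± 4.26 and the wild type 81.2% ± 2.58 (SD, n = 2 each), a difference of -75.7 percentage points (two-sided exact permutation test, p = 0.33). With 2 libraries against 2, this is the smallest value that the exact test can give. At the 3936 shared wild-type regions of experiment 2, the knockout of experiment 1 covered 0.314% and 1.11% of bases and its wild type 71.2% and 71.5%. At the 25 shared regions, the knockout of experiment 1 covered 0.485% and 1.17% of bases and the wild type 81.5% and 84.5%. At these regions the knockout libraries of experiment 1 thus lay below their own share of all autosomal bases.

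**Figure D1:**
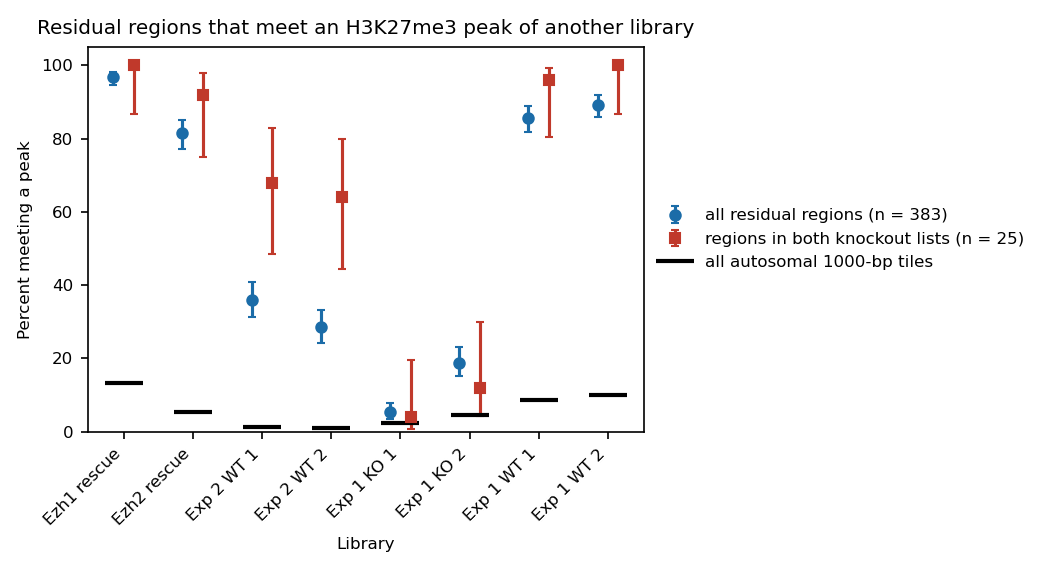
Percent of the 383 residual regions, and of all autosomal 1000-bp tiles, that meet a peak by 1 bp or more in each of the 8 libraries not used to choose the regions. The Ezh1 rescue meets 96.9% of regions, the Ezh2 rescue 81.5%, and the libraries of wild type in experiment 1 meet 85.6% and 89.3%, while the knockout of experiment 1 meets 5.22% and 18.8%.

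By number of wild-type libraries with a peak, 63 regions had a peak in all 4, 109 in 3, 156 in 2, 26 in 1 and 29 in none. Any wild-type peak was found at 354 regions (92.4%, against 11.8% of tiles). For the 29 without one, the wild-type lists give no basis for the word residual. All 29 were in the list of replicate 2 only, as were 357 of all 383 regions, and their median width was 700 bp. Of the 25 shared regions, 14 had a peak in all 4 wild-type libraries and every one had a peak in at least 1.

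The 2 rescues, each a single library with no replicate, were nested at these regions. Every region with an Ezh2 rescue peak also had an Ezh1 rescue peak (312 regions), 59 had an Ezh1 rescue peak only and 12 had neither. How often Ezh2 rescue peaks meet Ezh1 rescue peaks elsewhere was not computed, so the nesting cannot be called particular to these regions. No region had an Ezh2 rescue peak alone (0 of 383, which would allow a share of up to 0.783% if regions were independent). That bound is too narrow, since 189 regions had another within 10000 bp and neighbours can lie under the same rescue peak. It also does not cover other rescue libraries. The peaks met also differed in width. The widest Ezh1 rescue peak at a region had a median width of 28900 bp, and the widest Ezh2 rescue peak one of 2550 bp. At the 3936 regions shared by the wild-type libraries of experiment 2, the same medians were 11650 bp and 2200 bp. The Ezh1 rescue list as a whole covered more of the autosomes than the Ezh2 rescue list (252.6 Mb and 80.3 Mb), and its widest peak reached 243800 bp, against 34300 bp. These extents do not measure the amount of the mark, which the paper reports as lower in the Ezh1 rescue.

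**Figure D2:**
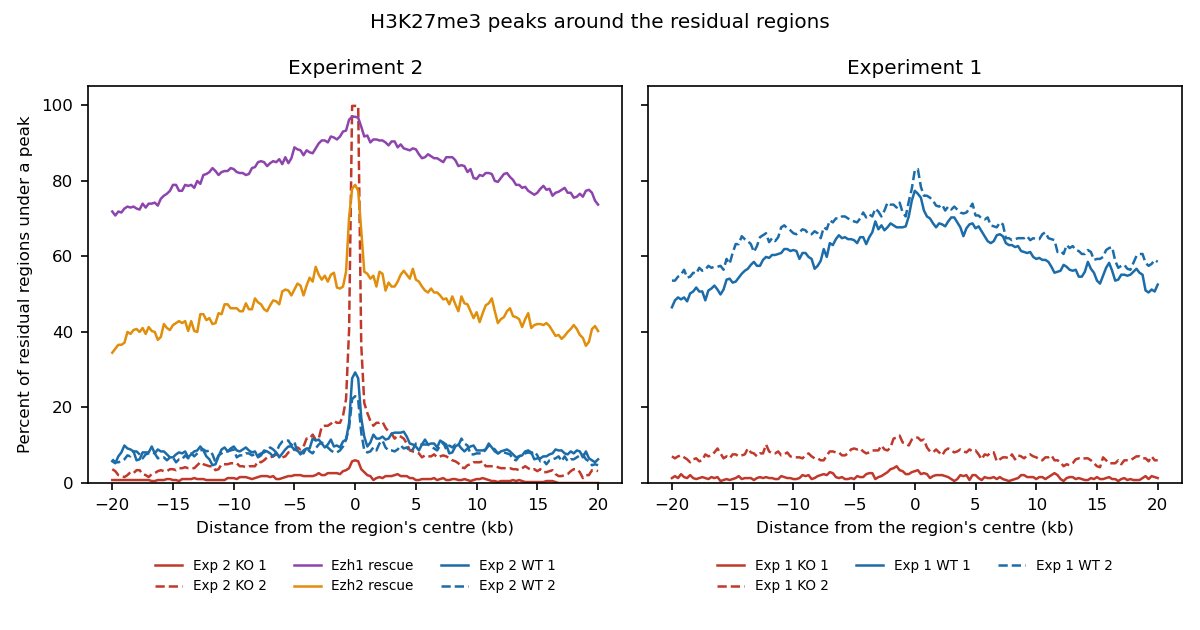
Percent of the 383 residual regions under a peak at each distance from the region's centre, in kilobases, with 1 line for each library. The Ezh1 rescue falls slowly, with 96.9% at the centre and 83.0% and 80.4% at 10 kb on either side, whereas the Ezh2 rescue has 78.9% at the centre and 46.2% and 45.2% there.

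Away from the centres, peaks were most frequent in the Ezh1 rescue, followed by the wild type of experiment 1 and the Ezh2 rescue, and least frequent in the wild type of experiment 2 among these groups. At 10 kb from the centre, 83.0% and 80.4% of regions were under an Ezh1 rescue peak on the 2 sides, against 46.2% and 45.2% for the Ezh2 rescue. The wild type of experiment 1 had 77.3% and 82.8% at the centre and between 59.3% and 66.1% at 10 kb. The wild type of experiment 2 had 29.2% and 23.0% at the centre and at most 9.66% at 10 kb. The widest wild-type peak at a region had a median width of 7535 bp and 9841 bp in experiment 1 and of 950 bp and 1050 bp in experiment 2. These medians cover only the regions that met a wild-type peak, and the 2 experiments differ in antibody and sequencer.

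Compared with regions marked in the wild type, the residual regions, nearly all from replicate 2 alone, were met more often by knockout peaks of experiment 1. These peaks met 5.22% and 18.8% of residual regions, against 0.813% and 2.26% of the 3936 shared wild-type regions of experiment 2 and 2.75% and 5.49% of the 45953 shared wild-type regions of experiment 1. Of the 25 regions in both knockout lists they met 4% and 12%, and they covered 0.485% and 1.17% of their bases. The wild-type regions had 0.314% and 1.11% of bases covered in the set of experiment 2, and 0.652% and 2.04% in that of experiment 1. By bases, the 25 thus lay below the latter set. Conversely, the 15676 regions shared by the knockout libraries of experiment 1 were met by the Ezh1 rescue at 11.4%, by the Ezh2 rescue at 6.25% and by the wild type of experiment 1 at 8.45% and 8.80%. The residual regions were thus far more often under rescue and wild-type peaks than the knockout regions of the other experiment. Regions are not replicates, so these shares carry no test.

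Of the 25 shared regions, 10 lay at a promoter, taken as 2500 bp on either side of a gene's start, and they belonged to 10 protein-coding genes. These encode Wnt3a and Wnt7b (secreted Wnt ligands), Ngfr (the p75 neurotrophin receptor), Neurod2 (a neuronal bHLH transcription factor), Uncx (a homeobox factor), Prdm12 (a regulator of sensory neuron development), Nptx1 (a secreted neuronal pentraxin), Elfn1 (a synaptic membrane protein), Mgat5b (a glycosyltransferase) and Mmp17 (a membrane-anchored metalloprotease). All 10 regions were fully covered in the Ezh1 rescue. The per-library values of these regions are given as the percent of the region's bases under peaks.

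At Wnt7b (chr15:85406001-85413650, 7650 bp, across the gene's start), the knockout of experiment 2 covered 84.3% and 99.3%, the Ezh1 rescue 100%, the rescue with Ezh2 72.5% and the wild type 20.9% and 0%. In experiment 1 the knockout had no peak there and the wild type covered 58.4% and 59.1%. The bounds of the region are those of the knockout peaks, so its coverage in the knockout of experiment 2 was set by the choice of regions, here and below. At Ngfr (chr11:95446851-95449000, 2150 bp), the values were 55.8% and 100% in the knockout of experiment 2, 100% in both rescues and 51.2% and 46.5% in the wild type. In experiment 1 they were 0% in both knockout libraries and 100% in both wild-type libraries. Ngfr was thus marked in every library except the knockout of experiment 1. At Prdm12 (chr2:31492401-31496650, 4250 bp, across the gene's start), the knockout of experiment 2 covered 50.6% and 100%, the Ezh1 rescue 100%, the rescue with Ezh2 98.8% and the wild type 0% in both libraries. In experiment 1 the knockout covered 10.6% and 13.4% and the wild type 100% in both libraries. Prdm12 was the only one of the 25 with a peak in both knockout libraries of experiment 1, and also 1 of 6 with no peak in either wild-type library of experiment 2.

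Among the other promoter regions, those of Wnt3a (chr11:59101501-59103800), Uncx (chr5:140020051-140025800) and Elfn1 (chr5:140384551-140386700) had no peak in either wild-type library of experiment 2. In the wild type of experiment 1 they were covered at 100% in both libraries for Wnt3a, at 56.0% and 61.2% for Uncx and at 63.3% and 65.2% for Elfn1. The Ezh2 rescue covered 87.0%, 40% and 83.7% of these regions. Neurod2 (chr11:98184351-98189700), Nptx1 (chr11:119407751-119410850), Mgat5b (chr11:116780451-116781550) and Mmp17 (chr5:130090501-130091750) had peaks in all 4 wild-type libraries. At Mgat5b the wild type covered 63.6% and 54.5% in experiment 2 and 69.1% and 65.5% in experiment 1, and the Ezh2 rescue had no peak within the region. Mgat5b was 1 of only 2 shared regions without an Ezh2 rescue peak, and the promoter as a whole was covered at 72.0% in that library. None of these 7 regions had a peak in the knockout of experiment 1.

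**Figure D3:**
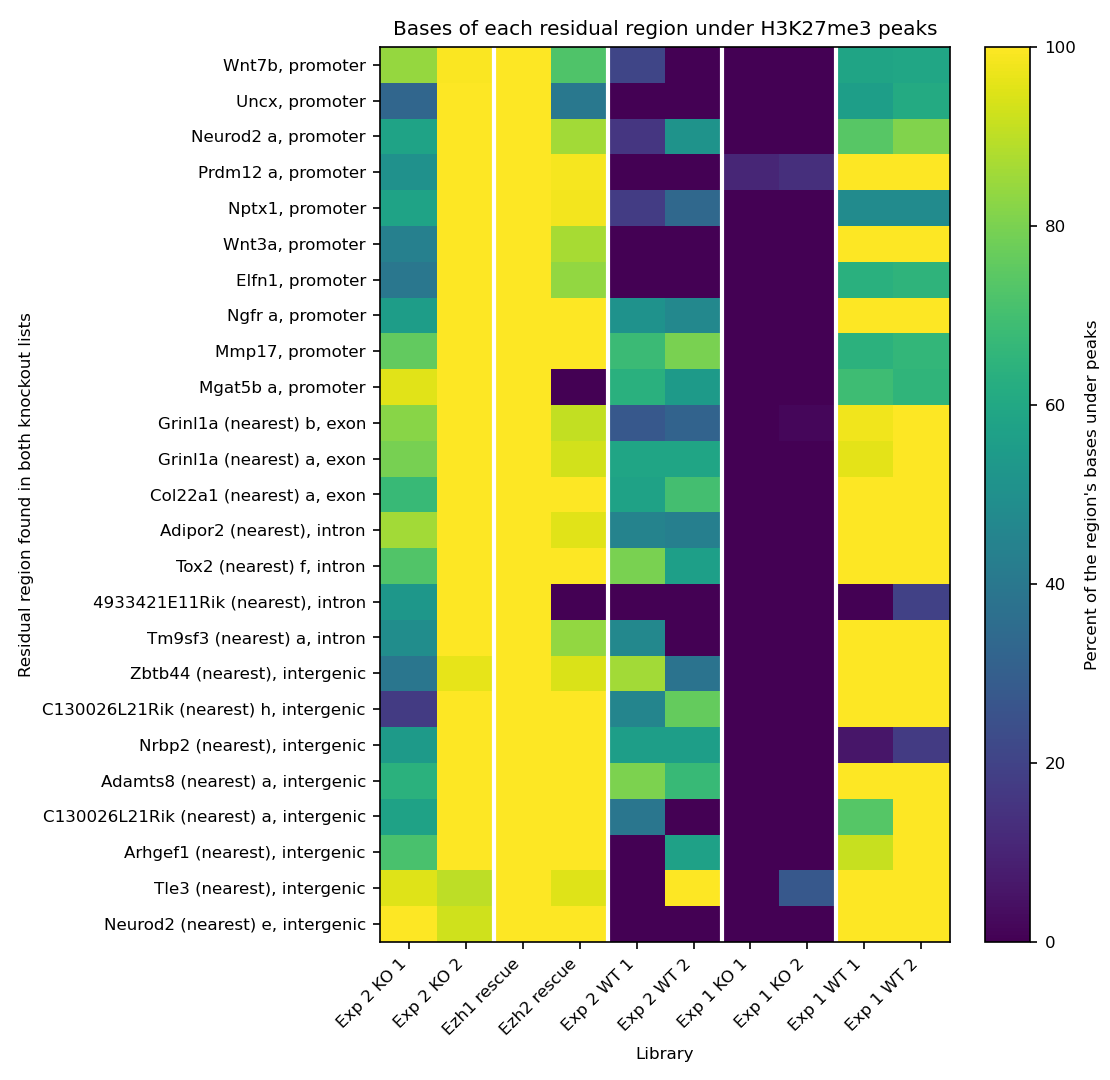
Percent of bases under peaks in each of the 25 regions shared by both knockout lists (rows) in each of the 10 libraries (columns). The Ezh1 rescue column is at 100% throughout, the columns for the knockout of experiment 1 are at 0 but for 1 region in replicate 1 and 3 in replicate 2, and the wild-type columns of experiment 1 are higher than those of experiment 2 at most regions.

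The other 15 shared regions lay away from promoters: 8 were intergenic, 4 intronic and 3 touched an exon. The widest of all were 2 neighbours within the overlapping genes Gcom1 and Grinl1a on chromosome 9. The wider one (chr9:71361101-71374600, 13500 bp) was covered at 82.2% and 100% in the knockout of experiment 2, 100% in the Ezh1 rescue, 90.7% in cells rescued with Ezh2 and 27.4% and 31.9% in the wild type. In experiment 1 it was covered at 0% and 1.74% in the knockout and at 97.7% and 100% in the wild type. Its neighbour (chr9:71351801-71360750, 8950 bp) was covered at 79.3% and 100% in the knockout of experiment 2 and at 58.7% in both wild-type libraries of that experiment. Within experiment 1, both regions had almost no bases under knockout peaks.

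A pair of intergenic regions between Adamts8 (a secreted metalloprotease) and Zbtb44 (a zinc finger gene) on chromosome 9 had high wild-type values. At the one nearer to Adamts8 (chr9:30788401-30791450) the knockout of experiment 2 covered 63.9% and 100%, both rescues 100% and the wild type 80.3% and 67.2%. At the one nearer to Zbtb44 (chr9:30794001-30800400, 6400 bp) the knockout covered 39.1% and 96.1%, the Ezh1 rescue 100%, the rescue with Ezh2 94.5% and the wild type 85.9% and 38.3%. In experiment 1 both regions had no knockout peak and were fully covered in both wild-type libraries. The regions in introns of Tox2, Adipor2 (an adiponectin receptor) and Pik3ap1 (a PI3K adaptor, with Tm9sf3 the nearest start), and the one touching an exon of Col22a1 (a collagen), had the same pattern, fully covered in the wild type of experiment 1 and without a peak in its knockout. So did the region 2839 bp from the start of Neurod2. The 2 regions nearest to C130026L21Rik and those nearest to Arhgef1 and Tle3 (a Groucho corepressor) were covered at 73.6% or more in each wild-type library of experiment 1. The Tle3 region also had a peak in knockout replicate 2 of experiment 1, covering 27.6% of it.

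A pair of the 25 departed from this. The region in an intron of 4933421E11Rik (chr3:106520251-106522800, 2550 bp) was covered at 52.9% and 100% in the knockout of experiment 2 and at 100% in the Ezh1 rescue. It had no peak in the Ezh2 rescue, none in the wild type of experiment 2, none in the knockout of experiment 1, and 0% and 19.3% in the wild type of experiment 1. The intergenic region nearest to Nrbp2 (chr15:75933151-75936450, 3300 bp) was covered at 54.5% and 100% in the knockout of experiment 2, at 100% in both rescues and at 56.1% in both wild-type libraries of that experiment, but at 6.18% and 17.5% in the wild type of experiment 1.

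The 10 widest regions found in 1 list only ran between 3550 and 5950 bp. Of these, 6 lay at the promoters of Onecut3 (2 regions, a homeobox factor), Olig2 (a bHLH factor of oligodendrocytes and motor neurons), Ihh (a hedgehog ligand), H2-Q10 (an MHC class I gene) and Spopl (a ubiquitin ligase adaptor). The remaining 4 were 2 regions inside Srcin1 (one of them with 4933428G20Rik as the nearest start), 1 in Tox2 and 1 near Rabac1. All 10 lay wholly under Ezh1 rescue peaks and were without a peak in the knockout of experiment 1, while the Ezh2 rescue covered between 38.0% and 100%. The lowest of the 10 in the wild type was the region at Spopl, with no peak in experiment 2 and 21.2% and 45.4% in experiment 1.

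Over all 383 regions, 99 lay at a promoter (25.8%), 41 touched an exon, 93 were intronic and 150 intergenic. Promoters took 14.8% of the shared wild-type regions of experiment 2, 12.7% of those of experiment 1, 6.26% of the shared knockout regions of experiment 1 and 4.78% of tiles. The median distance to the nearest gene start was 12402 bp, and 77 regions lay beyond 50000 bp.

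The 99 promoter regions belonged to 85 protein-coding genes, of 21281 on the autosomes (0.399%). The promoters of these 85 genes had a peak in the Ezh1 rescue for 80 (28.9% of all autosomal protein-coding genes), in cells rescued with Ezh2 for 77 (19.6%) and in the wild type of experiment 2 for 45 and 35 (7.38% and 6.34%). In experiment 1 the knockout had one for 9 and 14 (7.28% and 8.37%), and the wild type for 78 and 79 (23.1% in each library). Both wild-type libraries of experiment 1 marked 78 of the 85, against 20.7% of all genes. The knockout share in experiment 1 (10.6% and 16.5%) was thus closer to that of all genes than the share in any other library.

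Gene lists of the Polycomb field gave 20 of the 85 genes. Of 89 neural and ectodermal transcription factors on the autosomes, 9 had a residual region at the promoter (Neurog3, Neurod2, Olig1, Olig2, Emx1, Six3, Uncx, Nr2e1 and Insm1), out of 68 whose promoter was marked in both wild-type libraries of experiment 1. Of 66 secreted developmental signals, 7 had one (Wnt1, Wnt3a, Wnt7b, Fgf3, Shh, Ihh and the activin subunit gene Inhbb), out of 42 marked. Of 42 receptors and ligands at the cell surface, 2 had one, among them Ngfr, out of 19 marked. Of 81 mesoderm and endoderm transcription factors, 1 had a residual region (Barx2, a homeobox gene), out of 61 marked. None of the 39 HOX cluster genes did, of which 24 were marked, and none of 24 fibroblast genes or 28 housekeeping genes, of which 0 were marked. Among 31 imprinted genes it was Dio3, which encodes a deiodinase of thyroid hormone (12 marked), and none of 29 Polycomb complex genes had one (7 marked), nor did Ezh1, Ezh2 or Myc. Over all autosomal protein-coding genes, 78 of the 4408 marked in this way had a residual region, so that 1 of 61 or 0 of 24 is not set apart from the rest. These counts are descriptive, and the difference between lists was not tested.

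Among the listed genes without a shared region, Ihh, Olig2 and Olig1 had the most promoter bases under knockout peaks of experiment 2. In the 2500 bp on either side of its start, Ihh was covered at 0% and 73.0% in that knockout, 100% in the Ezh1 rescue, 49.1% in cells rescued with Ezh2 and 39.0% and 0% in the wild type. Olig2 was covered at 0% and 71.1% in the knockout, 100% in the Ezh1 rescue, 72.1% in cells rescued with Ezh2 and 19% and 12.0% in the wild type. Olig1, its neighbour and paralog, was covered at 0% and 57.3% in the knockout, 100% in the Ezh1 rescue, 46.7% in cells rescued with Ezh2 and 0% and 15% in the wild type. None of the 3 had a peak in the knockout of experiment 1, and the wild type of that experiment covered between 60.2% and 77.1% of each promoter. At Shh, a hedgehog ligand, the knockout of experiment 2 covered 0% and 21.0%, the Ezh1 rescue 100%, the rescue with Ezh2 89.0% and the wild type 33.0% and 35.0%. Replicate 1 of the knockout had no peak at any of these 4 promoters, so they rest on 1 library. In experiment 1, the only listed genes with a knockout peak at the promoter were Neurog3 (0% and 33.5%, a bHLH factor of endocrine and neural precursors) and Dio3 (11% and 22.3%).

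Outside the lists, and named after their values were seen, the 85 genes included further homeobox or PR-domain factors (Prdm12, Onecut3, Hmx1, Gsx1, Bsx and Nkx1-1). Hmx1 had the highest knockout coverage of these in experiment 1. There its promoter was covered at 29.8% and 75.4% in the knockout and at 74.1% and 78.1% in the wild type. In experiment 2 it was covered at 0% and 13.1% in the knockout and 0% in both wild-type libraries. The Ezh1 rescue covered 93.0% of it and the rescue with Ezh2 44.9%. Onecut3, Gsx1, Bsx and Nkx1-1 had no knockout peak at the promoter in experiment 1.

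Sequence was not used to choose the regions. In the central 1000 bp, the residual regions had a median GC content of 51.5%, against 48.7% in the shared wild-type regions of experiment 2, 45% in the shared knockout regions of experiment 1 and 41.7% in tiles. The median ratio of observed to expected CpGs was 0.217, against 0.185, 0.152 and 0.161 in the same 3 sets. A CpG-dense window (200 bp with a GC content of at least 50% and a ratio of at least 0.6) was present in 113 regions (29.5%), against 11.2% of the wild-type regions, 7.51% of the knockout regions of experiment 1 and 6.63% of tiles. The regions at Prdm12 and Ngfr printed above were among the 113, and those near Adamts8 and in Tox2 were not. The region at Wnt7b was not either, since its CpG-rich window lies outside the central 1000 bp.

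The higher median ratio of observed to expected CpGs was found mainly at promoters. The 99 residual regions at promoters had a median ratio of 0.414 and a CpG-dense window in 58 (58.6%), against 0.202 and 20.4% for the 582 shared wild-type regions of experiment 2 at promoters. The 284 residual regions away from promoters had a median ratio of 0.196 and a CpG-dense window in 55 (19.4%), against 0.183 and 9.57% for the 3354 wild-type regions away from promoters. The share with a CpG-dense window was thus higher among residual regions in both classes.

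**Figure D4:**
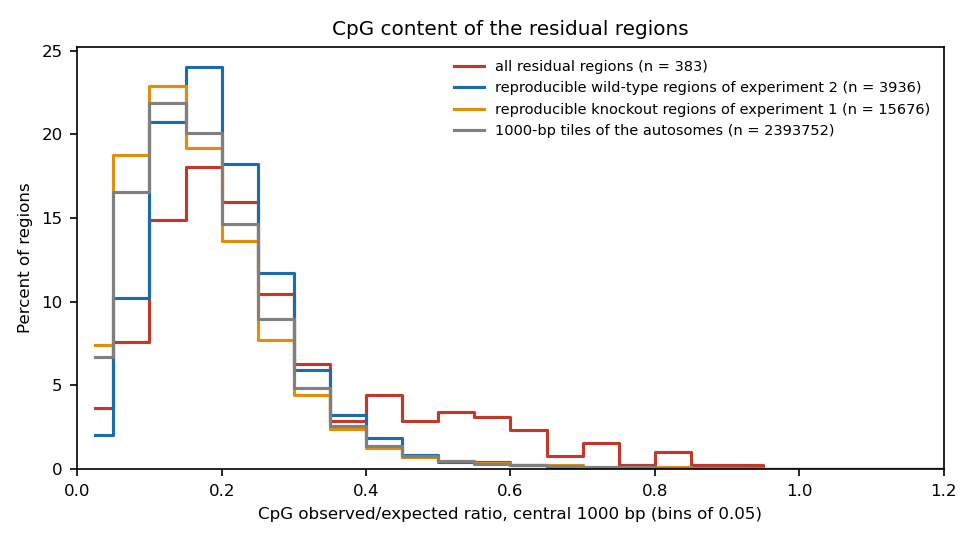
Percent of regions by the ratio of observed to expected CpGs in their central 1000 bp, in bins of 0.05, for the residual regions, the shared wild-type regions of experiment 2, the shared knockout regions of experiment 1 and all autosomal 1000-bp tiles. All 4 sets peak at low ratios (medians 0.217, 0.185, 0.152 and 0.161), and the residual regions have more of their share at high ratios than the other sets.

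Of 3 short motifs searched on both strands of the central 1000 bp, GCGCGC, which lies within CpG-rich DNA, was present in 38 residual regions (9.92%), against 1.91% of the shared wild-type regions of experiment 2 and 1.67% of tiles. GAGAG was present in 96.9% of residual regions, 96.4% of those wild-type regions and 91.1% of tiles. TATAAA was present in 29.2%, 35.1% and 62.4% of the same sets. Across these 3 sets, the order of GCGCGC and TATAAA follows that of GC content, which was not separated from the motifs. For GCGCGC this did not extend to experiment 1. Its shared knockout and wild-type regions (median GC 45% and 44.5%) had the motif in 1.57% and 1.39%, below tiles.

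The 12 regions without an Ezh1 rescue peak differed from the rest in several ways. None had an Ezh2 rescue peak, and 10 had no wild-type peak either, against 19 of the 371 regions with an Ezh1 rescue peak. All 12 were in the list of replicate 2 only, but so were 345 of the 371. Of the 12, 5 were at least 50% exonic, against 20 of the 371 regions with an Ezh1 rescue peak. The 5 included regions in Nop56 (a core snoRNP protein, 96.3% exonic), Hspa8 (the constitutive heat shock cognate protein, 100%), Hist1h1e (a linker histone, 73.8%) and Brd2 (a bromodomain protein, 100%). At Hspa8 (chr9:40611551-40612500) the knockout of experiment 1 also had peaks, covering 68.6% and 77.9%, and the wild type of both experiments had none. Nop56 had a peak covering 6.89% in knockout replicate 2 of experiment 1, and the regions in Hist1h1e and Brd2 had no peak in any of the other 8 libraries. The other 7 of the 12 were intergenic, nearest to Lcn4, 3110043O21Rik, Cacng4, Vash1, Dmrt2 (2 regions) and Gpam. Of these, the regions near Lcn4 and Cacng4 had peaks in the wild type of experiment 1. Its knockout covered 49.5% and 100% of the Lcn4 region, 0% and 100% of the Cacng4 region, and 27.1% and 26.1% of 1 Dmrt2 region.

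Of the 19 regions with a peak in both knockout libraries of experiment 1, 1 was in both lists of experiment 2 (Prdm12). Another 17 were in the list of replicate 2 only, and 1 was that of replicate 1 near Gm12355. Among all 383 regions, 25 were in both lists and 357 in that of replicate 2 only. The 19 are thus not set apart by their listing. Their median ratio of observed to expected CpGs was 0.155 (0.217 over all regions), and 4 lay at promoters (25.8% of all regions did). Of the 73 regions with a peak in either knockout library of experiment 1, 7 lay at promoters and 24 on chromosome 5. Of the 310 with none, 92 lay at promoters and 43 on chromosome 5. Near Hmx1 on chromosome 5, the promoter region at chr5:35733351-35734500 was covered at 100% in knockout replicate 2 of experiment 2, at 100% in the Ezh1 rescue, and at 0% in cells rescued with Ezh2 and in both wild-type libraries of experiment 2. In experiment 1 it was covered at 58.5% and 67% in the knockout and at 66.5% and 69.7% in the wild type, so that the values of the 2 groups overlapped there.

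The regions were spread unevenly over the autosomes. Chromosome 11 held 69 (18%) and chromosome 5 held 67 (17.5%), although these chromosomes make up 4.93% and 6.17% of autosomal sequence. Others were also above their share of sequence, such as chromosome 19 (30 regions, 7.83%, against 2.48%) and chromosome 2 (45, 11.7%, against 7.35%). Some were below it, such as chromosome 3 (6 regions, 1.57%, against 6.46%). Chromosome 11 also held 10.2% and 11.2% of the peaks in the wild type of experiment 2, but 5.70% and 5.48% of those in the knockout of experiment 1. Chromosome 5 held 8.95% and 8.71% of the peaks in the wild type of experiment 2, and 18.9% and 15.4% of those in the knockout of experiment 1, against 6.45% and 6.09% in its wild type. The number of copies of each chromosome in this line was not analysed here, and its part in these counts was not tested.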

How the data were processed

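The data were the H3K27me3 peak lists of 10 ChIP-seq libraries, and the 2 input samples have no list here. The authors aligned reads to mm9 and deposited peaks called in each library against input. Tools in the submitters' processing notes are MACS2 2.0.10, HOMER 3.17, SAMtools, Bowtie2 2.1.0 and Bowtie 0.12.8. Per the study's methods, duplicates were removed, reads were down-sampled to a common number and a lower factor was applied to Ezh2 -/- and Ezh1 rescue samples. Every deposited coordinate of experiment 2 fell on a 50-bp grid, for which no source used here gives the origin.

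Peaks were compared by overlap (at least 1 bp) in Python 3.11.15 with NumPy 2.4.6, pandas 2.3.3 and SciPy 1.17.1. A shared region is a region of joined peaks present in both libraries of a group. Genes came from GENCODE vM1 and sequence from the mm9 (NCBIM37) genome. Regions were placed at a promoter (2500 bp on either side of the start of a protein-coding gene), then exon, intron or intergenic. Repeat content was not computed, since the genome used is not masked. Overlap counting was tested on 1000 simulated regions and gave 0 mismatches.

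The members, gene lists and comparisons were chosen with earlier results of these data known. Named genes were those at, or nearest to, the regions in both lists, those at the 10 widest regions in 1 list only, and members of the gene lists with a residual region at the promoter; a few items are not reported here. Shares carry 95% Wilson intervals, which cover no more than counting error. They treat regions as independent, so they are too narrow where neighbours lie under the same peak. Libraries were compared by an exact permutation test. Alternatives covered chromosomes, joining, peak width, overlap, promoter window, gene set, replicates left out and pairing.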

Additional observations from a re-analysis of the deposited data

How the results depend on the processing

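Replicate 2 supplied nearly every region, and joining, chromosomes and gene set moved no count beyond 1.5 times. Leaving out either knockout library of experiment 2 gave between 29 and 382 regions, with 10 to 98 at promoters. The share meeting a peak was then 96.9% to 100% in the Ezh1 rescue, 81.4% to 93.1% in cells rescued with Ezh2, 36.1% to 62.1% and 28.5% to 62.1% in the wild type of experiment 2 (17.5% to 48.3% in both), 4.97% to 6.90% and 13.8% to 18.6% in the knockout of experiment 1, and 85.6% to 96.6% and 89.3% to 100% in its wild type (84.3% to 96.6% in both). With only peaks of at least 1000 bp there were 153 regions, 53 at promoters. The shares were 99.3% in the Ezh1 rescue, 88.2% in cells rescued with Ezh2, 47.1% and 39.9% in the wild type of experiment 2 (29.4% in both), 12.4% in knockout replicate 2 of experiment 1, and 94.1% and 95.4% in its wild type (92.8% in both). Counting a region only when 50% of it lay under peaks gave 28.7% and 22.2% in the wild type of experiment 2 (12.3% in both), 3.13% and 11% in the knockout of experiment 1, and 77.5% and 82.8% in its wild type (73.9% in both). A promoter window of 1000 bp gave 63 promoter regions. The cause of these shifts was not tested.

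The difference in residual bases between knockout and wild type of experiment 1 stayed between -83.8 and -72.7 percentage points when any 1 library was left out. With the replicate number as a block, the same difference was -75.7 (exact p = 0.5, the smallest this paired design allows). Without chromosome 5, an alternative chosen after seeing the data, there were 316 regions, 20 of them in both lists and 87 at promoters. Depth behind the peaks is unknown, so a missing peak does not show that the mark is absent.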

Other observations

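The list of replicate 2 was not in genome order, and its shared peaks stood early in it: 12 of its first 25 lines and 20 of its first 50 met a peak of replicate 1, with the median shared line at 28 of 382 and the last at 342. No source used here gives what sets this order, and no value was drawn from it.

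Of the 29 regions without a wild-type peak, the widest was intergenic (chr17:29243651-29245950, 2300 bp) and in the list of replicate 2 only. The nearest gene start, 15727 bp away, was that of Cdkn1a, which encodes the cell cycle inhibitor p21. This region was covered at 0% and 100% in the knockout of experiment 2, 100% in the Ezh1 rescue and 67.4% in cells rescued with Ezh2. It had no peak in the knockout of experiment 1.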
